A study of Oncorhynchus tshawytscha with 17 samples.

Results

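Among untreated Chinook salmon (Oncorhynchus tshawytscha), a Pacific salmonid, 3 fish with the number 12 in their sample titles were compared with 3 fish with the number 35. The fish were taken by their titles alone, 12A, 12B and 12C against 35A, 35B and 35C, which makes 6 of the 17 sequenced fish. They are called 12A to 35C below, and treated fish by abx or pro and their title. The source was hindgut, described in the labels as epithelium of diploid fish. All 6 are labelled as healthy controls that received neither treatment, and in the labels only the title number, a letter and the index primers set them apart. What the numbers and letters stand for, such as a tank, a family or a fish, is not given in the sources used here, nor is age. The other 11 fish received antibiotics (numbers 67 and 91, 5 fish) or probiotics (6 fish of 2 further numbers) for 10 days and serve as a reference range. The comparison asks how far 2 sets of control fish under the same label differ from each other. Nothing states whether the samples of a number came from separately kept fish, so p-values measure only the spread between samples. For edgeR p-values and SE (standard errors) that spread was estimated within the numbers over all 17 fish, the treated fish included.

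The hindgut of salmonids is lined by enterocytes that take up intact protein and digest it in lysosomes. New enterocytes arise from dividing cells at the base of the mucosal folds, and smooth muscle, vessels and nerves lie beneath. The exocrine pancreas of these fish is diffuse and lies in the fat and mesentery around the gut. In bulk tissue, fewer cells of a type and less RNA per cell cannot be told apart.

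Read counts assigned to named genes ranged from 41.4 to 56.7 M (units of 1e6) in the 12 fish, from 38.1 to 47.6 M in the 35 fish and from 28.6 to 61.1 M in the treated fish. Hindgut markers were present in every control fish. Cubn, which encodes the endocytic receptor cubilin, was at 4161 to 6117 CPM (counts of a gene per 1e6 counts, normalised) in 12 fish and 3406 to 5414 CPM in 35 fish. Fabp6, an ileal bile acid binding protein, was at 2078 to 4623 CPM and 1066 to 2121 CPM. Vil1, the brush border protein villin, was at 1259 to 2329 CPM and 1220 to 1754 CPM. The ranges of 12 and 35 fish overlapped for all 3 genes. Muscle was also present, with tpm2, a tropomyosin, at 1004 to 1350 CPM in 12 fish and 1256 to 2421 CPM in 35 fish. The primer wells named in the titles lay in rows A and C for 12 fish and in rows E, F and H for 35 fish. Index row and title number therefore cannot be told apart among the controls.

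No gene passed correction for all genes tested between the numbers. The quasi-likelihood test of edgeR on 32619 genes gave 0 calls (0%), where a call needed a p under 0.05 after Benjamini-Hochberg adjustment. The smallest adjusted p was 0.728. Every edgeR difference between 12 and 35 fish given below from this fit therefore has an adjusted p of 0.728 or above. Without adjustment 2031 genes (6.23%) had a p under 0.05, with 1083 (3.32%) higher in 12 fish and 948 (2.91%) higher in 35 fish. This count depended on single fish: it was 1242 without 12A, 3836 without 12B and 966 without 12C. In an edgeR fit of the control fish alone, 8.03% of 28931 genes had an unadjusted p under 0.05. Limma-voom also called 0 genes and had 1769 at an unadjusted p under 0.05. DESeq2 called 17 of 31135 genes, a share of 0.0546%, of which 6 were higher in 12 fish and 11 in 35 fish. In 4225 genes (13.0%) the 3 fish of one number all lay above the 3 of the other. The 12 fish were above in 1773 of them (5.44%) and the 35 fish in 2452 (7.52%). Without any difference between the numbers, on average 10% of genes would separate in either direction. An unadjusted p under 0.05 would then occur in 5%. A gap of over 1 log2 unit between the nearest fish remained in 161 of the 32619 genes, 73 with the 12 fish above and 88 with the 35 fish above. This gap was taken on CPM without an offset. A gene without reads in 1 number could therefore pass on few reads in the other, as phf20b below did. Over all tested genes the median log2 fold change, 12 minus 35, was -0.01, and 48.6% of genes were on the higher side in 12 fish.

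**Figure D1:**
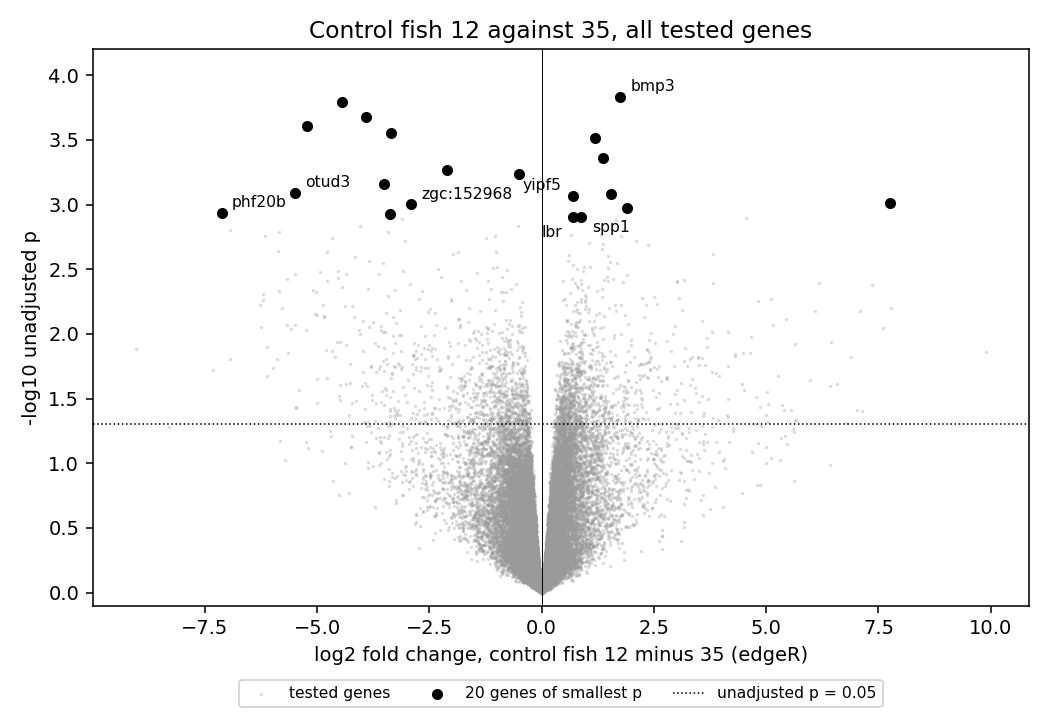
Each point is 1 of 32619 tested genes, with the log2 fold change between control fish 12 and 35 on the x axis (positive is higher in 12) and the -log10 unadjusted p of edgeR on the y axis. The 20 genes of smallest p are black, none passes correction, and the smallest adjusted p is 0.728.

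The fish were nearly as alike across the numbers as within them. Across genes, the mean Pearson correlation of log2 CPM was 0.960 within 12 fish, 0.955 within 35 fish and 0.954 between them, with single pairs from 0.938 to 0.966. Genes are not independent replicates, so these correlations only describe the libraries. The mean within minus the mean between was 0.00323 (one-sided exact permutation over the fish, p = 0.2; the smallest p that 3 against 3 fish allow here is 0.1). The first principal component held 25.9% of the variance among the 1000 most variable genes and had 12C at one end and 35B at the other. The second held 21.7% and had 35C (50.36) and 35A (17.8) on its high side. The 12 fish lay at -25.84 to -10.28 on it, with 35B among them at -13.05. The third, with 19.6%, set 35A apart. Thus no leading component split the 3 fish of one number from the 3 of the other, though the second did so except for 35B.

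The gene of smallest p was bmp3, a secreted ligand of the TGF-beta superfamily. It was at 1.61, 1.40 and 1.83 CPM in 12A, 12B and 12C and at 0.345, 0.713 and 0.365 CPM in 35A, 35B and 35C. The groups did not overlap, and the means were 1.61 ± 0.215 and 0.474 ± 0.207 CPM (SD, n = 3 each; log2 fold change 1.75, SE 0.35). No treated fish was as low as the 35 fish: their range was 0.833 to 1.86 CPM.

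Among the 20 genes of smallest p, none of which passed, 9 were on the higher side in 12 fish and 11 in 35 fish. The fish of the 2 numbers did not overlap in 19 of the 20, a description only, since p chose these genes. The gene zgc:152968, a protein-coding gene with only a placeholder name, was at 22.2, 23.9 and 22.1 CPM in 12 fish and 30.9, 33.4 and 33.1 CPM in 35 fish (log2 fold change -0.51, SE 0.12). None of the 11 treated fish, at 15.4 to 24.5 CPM, reached the 35 fish. Lbr, which encodes the lamin B receptor of the inner nuclear membrane, was at 12.15, 12.08 and 15.9 CPM in 12 fish and 8.38, 7.86 and 8.60 CPM in 35 fish (log2 fold change 0.69, SE 0.17). Yipf5, a membrane protein of the early secretory route, was at 34.4, 24.1 and 39.6 CPM against 20.2, 21.4 and 18.5 CPM (0.71, SE 0.17), and all 11 treated fish lay at or above the level of the lowest 12 fish. Spp1, osteopontin, a secreted phosphoprotein of bone and of immune cells, was at 10.30, 9.05 and 7.03 CPM against 4.41, 5.05 and 4.95 CPM (0.87, SE 0.22). In lbr, yipf5 and spp1 alike, the 35 fish lay close together and the 12 fish spread more widely.

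Genes without a symbol made up 13 of these 20. LOC112214852 was at 757, 1074 and 1017 CPM in 12 fish and 445, 392 and 273 CPM in 35 fish (log2 fold change 1.36, SE 0.30). LOC112249159 was at 61.0, 43.1 and 58.4 CPM against 27.5, 19.3 and 25.2 CPM (1.18, SE 0.25). LOC112225283 was at 110.6, 65.4 and 105.5 CPM against 33.2, 25.1 and 38.1 CPM (1.55, SE 0.37). In each of the 3 genes the treated fish covered both levels, for example 307 to 1295 CPM for LOC112214852.

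The genes on the higher side in 35 fish were mostly scarce. LOC112258262 was at 0.146, 0.136 and 0.226 CPM in 12 fish and 2.59, 5.72 and 2.89 CPM in 35 fish (log2 fold change -4.45, SE 0.89), and the median treated fish was at 0.245 CPM, near the 12 fish. LOC112228218 was at 0.586, 0.814 and 0.588 CPM against 10.6, 5.84 and 6.23 CPM (-3.51, SE 0.82). Here the median treated fish, at 5.30 CPM, was nearer the 35 fish. In several genes the 35 fish disagreed among themselves. LOC112261251 was at 1.13 CPM in 35A, close to the 0.678 to 0.905 CPM of 12 fish, but at 12.29 and 10.5 CPM in 35B and 35C. Otud3, a deubiquitinating enzyme, was at 4.79 CPM in 35B and 1.80 CPM in 35C, whereas 35A, at 0.049 CPM, lay within the 0 to 0.110 CPM of 12 fish. Phf20b, a chromatin reader, had no read in 12 fish, which allows up to 0.0549, 0.0678 and 0.0678 CPM in the 3 libraries (3 counts each, counting error only), and was at 0.592, 0.040 and 0.469 CPM in 35 fish. Over the 20 genes, the treated median was nearer the 12 mean in 16 and nearer the 35 mean in 4, on a log2 scale. In 15 of the 20, some treated fish were in the range of the higher number or above it and others in the range of the lower number or below it.

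**Figure D2:**
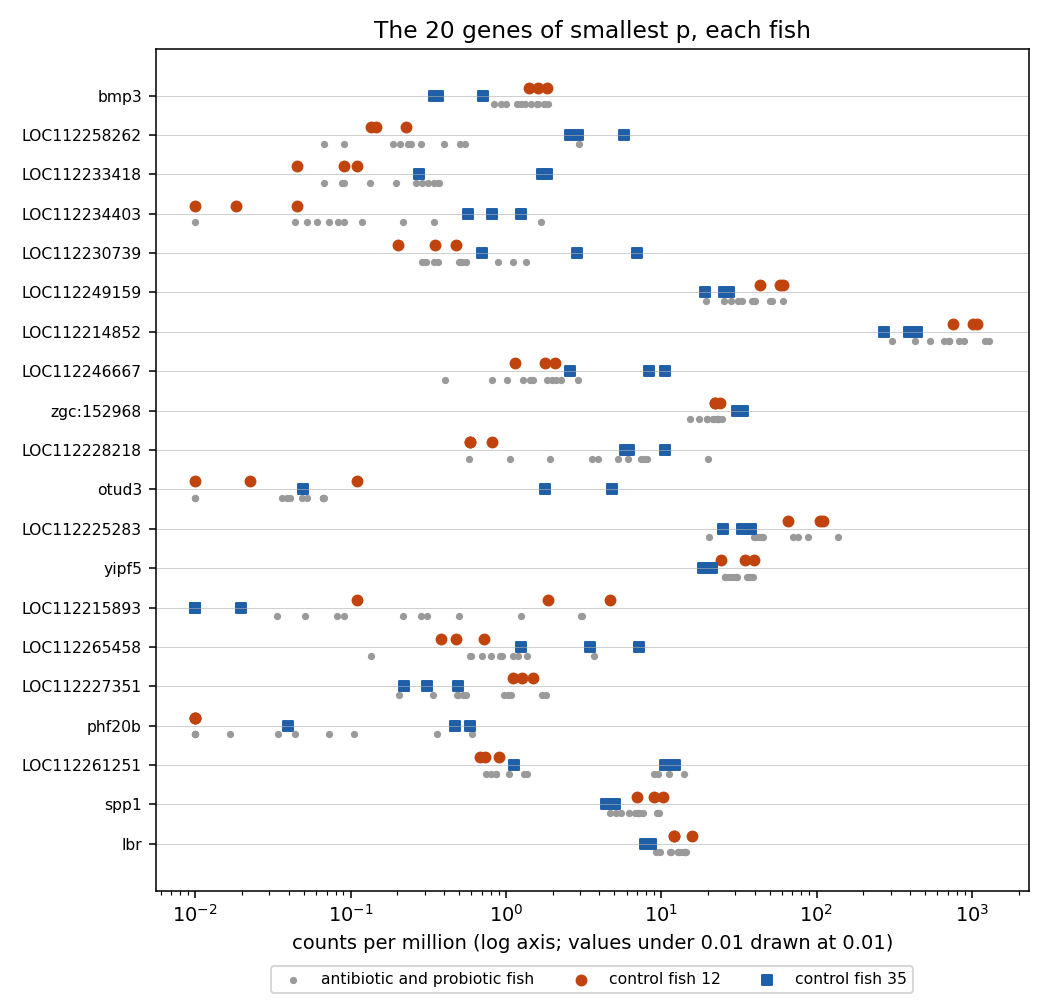
Levels in CPM on a log axis for the 20 genes of smallest p, each fish as 1 point (orange circles control 12, blue squares control 35, grey treated fish; values under 0.01 are drawn at 0.01). The 3 orange and 3 blue points are apart in 19 genes, while grey points reach both levels in 15.

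Of DESeq2's 17 calls, 15 were among these 20 genes. The lowest DESeq2 adjusted p was 0.00148, for LOC112258262, and 11 of the 17 were under 10 CPM on average in both numbers. In 5 of the 17 the fish of 1 number ranged over more than 3 log2 units. LOC112215893, for example, was at 0.110, 1.85 and 4.68 CPM in 12 fish and at 0, 0.020 and 0 CPM in 35 fish. LOC112226049 was close to on and off: it was at 7.98, 20.2 and 18.02 CPM in 12 fish and 0.148, 0.119 and 0 CPM in 35 fish (DESeq2 adjusted p = 0.0498; edgeR log2 fold change 7.35, SE 2.17). Treated fish lay on both sides, 8 at or above the lowest 12 fish and 3 at or below the highest 35 fish, and both sides occurred within both antibiotic numbers and 1 probiotic number.

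All 4 tested genes of 1 unplaced sequence in the deposited table, singled out after their values were seen, were on the higher side in 35 fish. LOC112241516 lies at 13758 to 13946 on that sequence, LOC112241504 at 24970 to 25160, LOC112241514 at 25545 to 25661 and LOC112241515 at 54074 to 54189, all on the plus strand. LOC112241516 and LOC112241514 are annotated as small nuclear RNA genes, and the reference used for names does not hold LOC112241504 and LOC112241515. LOC112241504 was at 0.311, 0.339 and 0.158 CPM in 12 fish and 1.36, 0.713 and 4.98 CPM in 35 fish (log2 fold change -3.10, SE 0.78). LOC112241516 was at 0.183, 0.068 and 0.023 CPM against 1.08, 0.297 and 1.72 CPM (-3.42, SE 0.89). The 35 fish were above the 12 fish in all 4 genes. Such genes occur in near-identical copies, so how their reads were split is uncertain, and 35C was highest of the 3 35 fish in both genes given with values.

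Digestive enzymes of the exocrine pancreas had the largest median difference of 38 gene lists examined. Of 6 tested genes, 5 were on the higher side in 12 fish, and the median log2 fold change was 2.24, a 4.73-fold difference, against -0.01 over all genes. In 4 of the 6 the fish did not overlap, beside 5.44% of all tested genes in that direction, and the same 4 had an unadjusted edgeR p under 0.05, beside 3.32%. None passed correction.

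Cpb1, carboxypeptidase B, was at 46.5, 27.1 and 51.0 CPM in 12 fish and 12.43, 6.73 and 4.59 CPM in 35 fish (log2 fold change 2.39, SE 0.88). Ela2, an elastase, was at 43.2, 27.8 and 41.4 CPM against 11.39, 7.21 and 5.60 CPM (2.21, SE 0.82). The related ela2l and ela3l differed by 2.27 (SE 0.88) and 2.38 (SE 0.85). Every 12 fish was at least as high as 7.17 CPM in ela3l, where the highest 35 fish was at 2.71 CPM. Prss1, a trypsin, was scarce, at 0.092 to 0.226 CPM in 12 fish and 0 to 0.104 CPM in 35 fish, and these ranges overlapped. Pla2g1b, a secreted phospholipase, went slightly the other way, at 3.42 to 5.16 CPM against 3.70 to 5.75 CPM (-0.24, SE 0.46).

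Summed over the list, 12A, 12B and 12C held 130.9, 82.9 and 130.8 CPM, and 35A, 35B and 35C held 38.9, 22.5 and 20.5 CPM. Most treated fish resembled the 35 fish, with a median of 25.3 CPM and 8 of 11 between 14.9 and 34.4 CPM. The others were at 82.4 CPM (abx67C), 137.0 CPM (pro139A) and 753 CPM (pro139C). In a fit with a factor for index row (A to D against E to H) the list's median was 0.94. Only treated numbers with fish in both row sets inform that factor. Outside the list, and picked after the values were seen, sycn, which encodes the zymogen granule protein syncollin, was at 20.9, 15.7 and 19.6 CPM against 5.67, 3.27 and 1.69 CPM (2.40, SE 0.88). Endou, an endoribonuclease, was at 9.37, 5.56 and 9.18 CPM against 1.97, 1.62 and 1.38 CPM (2.27, SE 0.73). Both genes, like the enzymes, had their treated maximum far above the controls, at 112.7 and 51.3 CPM.

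**Figure D3:**
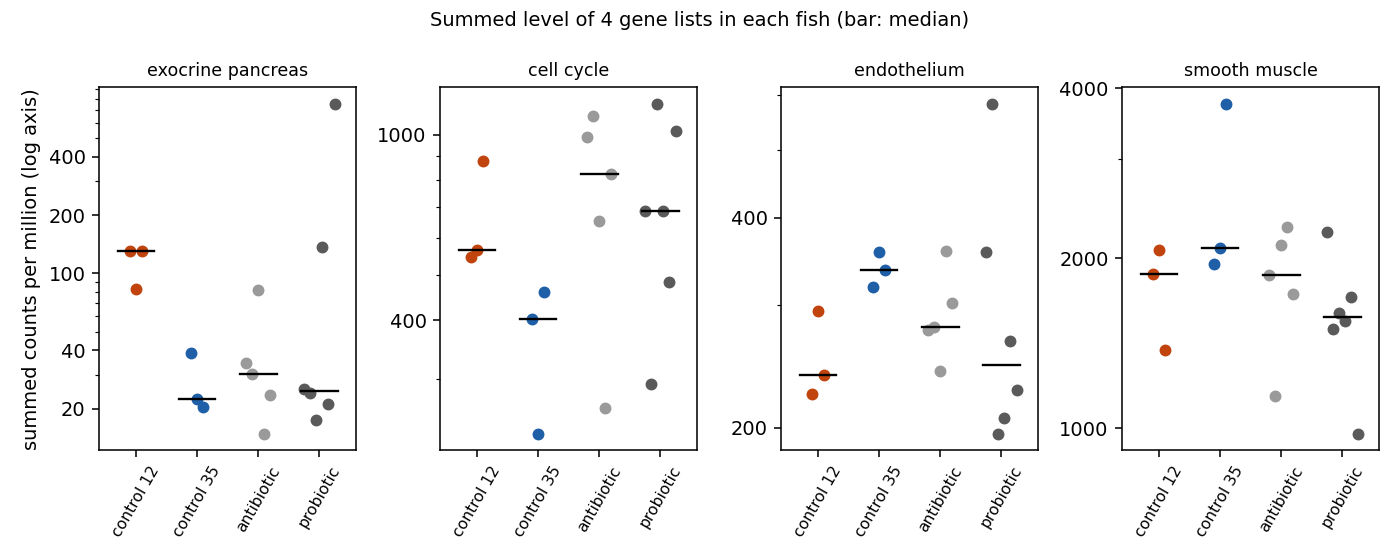
Summed CPM of 4 gene lists on log axes, each fish as 1 point and the median of each group as a bar (control 12, control 35, antibiotic, probiotic). The 4 lists were picked from those examined, and in most lists examined the summed levels of the numbers overlapped. Sums not drawn that also separated were lower in 12 fish: cytokines and chemokines (54.3 to 84.6 against 86.8 to 92.6) and gonad and sex (56.3 to 64.4 against 65.1 to 84.7). Control 12 lies above control 35 for exocrine pancreas (82.9 to 130.9 against 20.5 to 38.9) and cell cycle (545.7 to 878 against 229 to 461), and below it for endothelium (224 to 294 against 318 to 357), while smooth muscle overlaps.

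Genes of cell division stood higher in the 12 fish as a group, with a median log2 fold change of 0.97 (1.96-fold) over 36 tested genes. Of these, 32 were on the higher side in 12 fish. In 25 all 12 fish lay above all 35 fish and in 0 the reverse, beside 5.44% and 7.52% of all tested genes. Most members rose and fell together in the same fish, as given below, so these counts are not of independent genes. No member passed correction. An unadjusted edgeR p under 0.05 was found in 5 on the higher side in 12 fish, beside 3.32%, and in 1 on the other side. Of the 4 members on the 35 side, the 1 with such a p had the smallest p of the list.

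Mki67, the common marker of proliferating cells, was at 72.3, 61.0 and 115.04 CPM in 12 fish and 44.5, 15.8 and 36.6 CPM in 35 fish (log2 fold change 1.36, SE 0.70). Top2a, the topoisomerase of replicating chromosomes, was at 86.4, 88.5 and 142.4 CPM against 58.9, 21.0 and 53.6 CPM (1.25, SE 0.59). Ccnb1, the mitotic cyclin B1, was at 9.99, 10.38 and 23.2 CPM against 6.31, 3.52 and 5.65 CPM (1.49, SE 0.66). In all 3 genes 12C was the highest fish and 35B the lowest. Over the list, 12C was highest of the 6 fish in 28 of 36 genes and 35B lowest in 31. Without 12C the median was 0.69, without 35B it was 0.66, and without any other control fish it was at least 1.1.

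The S phase enzyme tk1, a thymidine kinase, was at 3.203, 2.67 and 5.04 CPM against 1.60, 0.732 and 1.80 CPM (1.40, SE 0.59). Mybl2b, a transcription factor of the cell cycle, was at 1.995, 1.45 and 1.72 CPM against 0.641, 0.257 and 0.573 CPM (1.82, SE 0.73). Of 3 further members, which were chosen after their values were seen and did not pass correction, cenpe of the kinetochore was at 22.7 to 45.6 CPM against 6.22 to 16.3 CPM, the spindle motor kif23 at 7.01 to 10.2 CPM against 3.35 to 4.76 CPM, and the mitotic kinase aurka at 8.93 to 17.5 CPM against 1.999 to 6.39 CPM. Not every member separated the numbers. Ccnd2a, a cyclin of early G1, overlapped at 39.7 to 65.9 CPM against 43.2 to 71.8 CPM. Rrm2b, a reductase subunit for DNA repair that the name match brought in and that does not mark division, overlapped as well.

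Summed over the list, the 12 fish held 545.7, 566 and 878 CPM and the 35 fish 404, 229 and 461 CPM. Treated fish ran from 260 to 1164 CPM with a median of 686 CPM, so they covered both numbers. Smooth muscle moved the other way in part, as given below. Adjusted for that list's score, the cell cycle genes had a median of 0.60, and adjusted for index row (A to D against E to H) a median of 0.11. Only treated numbers with fish in both row sets inform the row factor: 67, 91 and that of the pro139 fish. Their summed cell cycle level in rows A to D was 990 CPM (abx67A), 823 CPM (abx91B), 685 CPM (pro139A) and 1019 CPM (pro139C). In rows E to H it was 1096 CPM (abx67B), 655 CPM (abx67C), 260 CPM (abx91A) and 482 CPM (pro139B). Ckap2l, a spindle protein chosen after the values were seen, was at 3.18, 3.37 and 7.55 CPM in 12 fish and 0.888, 0.970 and 0.912 CPM in 35 fish (2.34, SE 0.83).

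**Figure D4:**
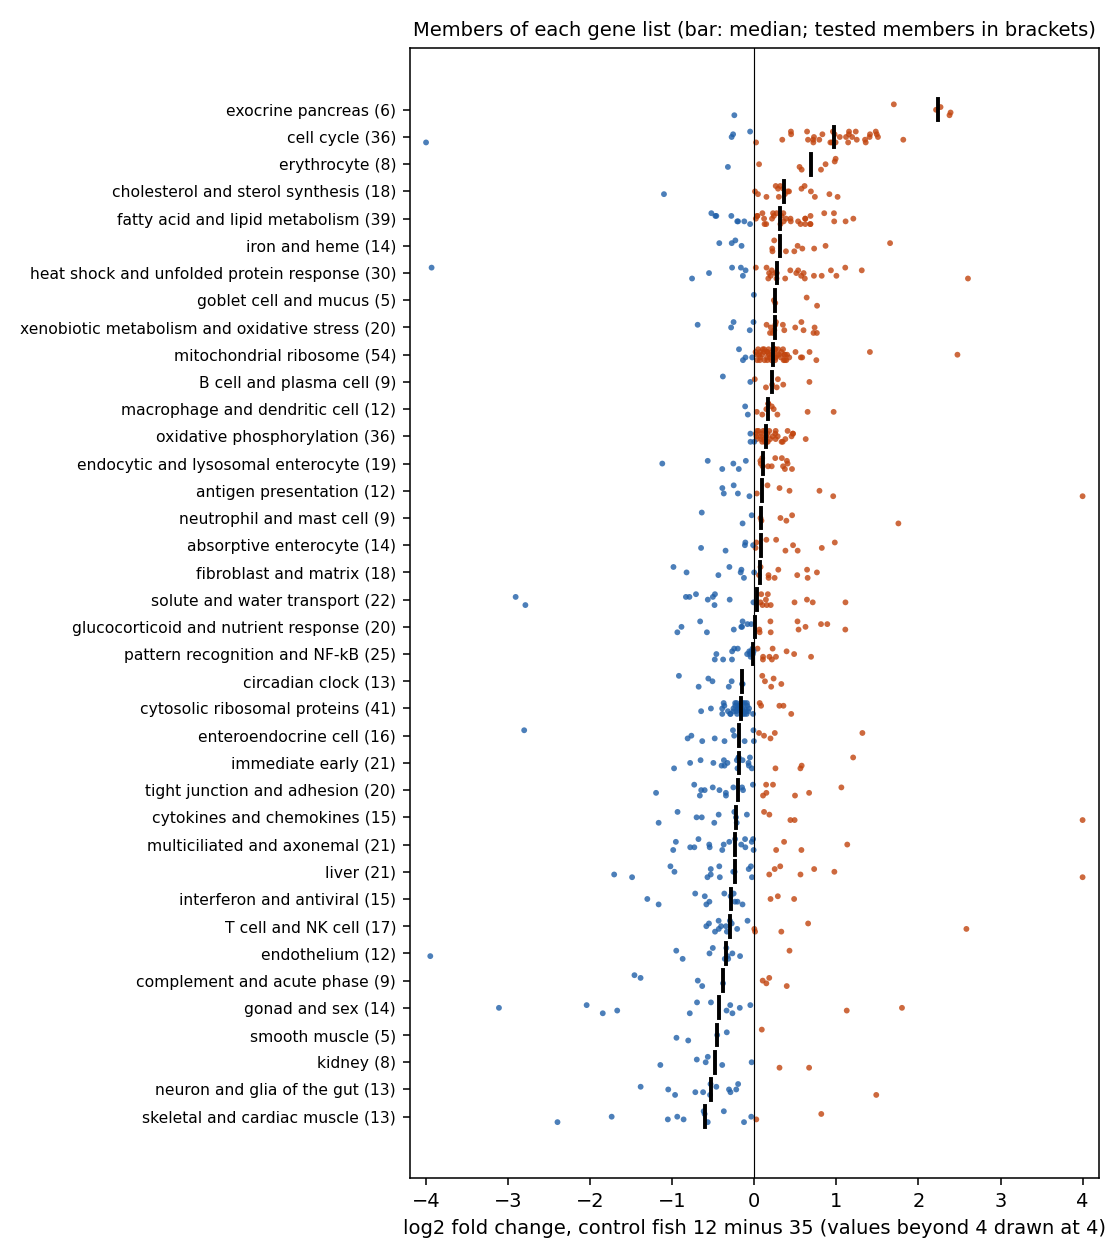
Log2 fold change of each tested member (points) and the median (black bar) of 38 gene lists, control fish 12 minus 35; orange is higher in 12, blue higher in 35, and values beyond 4 are drawn at 4. Exocrine pancreas (median 2.24) and cell cycle (0.97) lie farthest to the right, and skeletal and cardiac muscle (-0.61) farthest to the left.

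Among the lists of muscle, vessels and nerves, most members were on the higher side in 35 fish. For smooth muscle this held for 4 of 5 tested genes, with a median of -0.45. Cnn1b, a calponin of contractile cells, was at 391, 587 and 277 CPM in 12 fish and 537.5, 587 and 1069 CPM in 35 fish (-0.81, SE 0.35), so the groups overlapped and 35C was highest. Smtna, a smoothelin, was at 40.9, 53.7 and 26.002 CPM against 57.3, 78.8 and 96.5 CPM, and the groups did not overlap. The summed level of smooth muscle genes overlapped, at 1378 to 2065 CPM against 1951 to 3755 CPM.

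In endothelium 11 of 12 tested genes were on the higher side in 35 fish (median -0.35), and 3 did not overlap, beside 7.52% of all genes. Vwf, the clotting factor of vessel walls, was at 3.15, 6.54 and 4.14 CPM against 7.72, 7.72 and 9.87 CPM (-0.87, SE 0.39). Plvapa, of fenestrated vessels, was at 103.4, 124.8 and 111.2 CPM against 155.9, 181 and 144.7 CPM (-0.51, SE 0.30). Without 12B the median was -0.57. Of 13 genes of enteric neurons and glia, 12 were on the higher side in 35 fish (median -0.53, or -0.84 without 12B, -0.24 without 12C and -0.31 without 35C). The exception was th, tyrosine hydroxylase, at 1.45 to 3.91 CPM in 12 fish and 0.752 to 1.18 CPM in 35 fish. Skeletal and cardiac muscle genes were scarce, 19.04 to 28.5 CPM in sum in 12 fish and 22.5 to 48.0 CPM in 35 fish. Of these genes 11 of 13 were on the higher side in 35 fish (median -0.61, but 0.18 without 35B, -0.34 without 12C and -0.95 without 35A). No gene of these 4 lists passed correction. The share of muscle, vessel or nerve tissue in a sample, and its part in the other differences, was not tested beyond the smooth muscle covariate.

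Blood cell genes pointed in different directions. Hemgn, a nuclear protein of red cell precursors, was at 30.6, 40.4 and 27.3 CPM in 12 fish and 18.5, 16.5 and 21.1 CPM in 35 fish (0.81, SE 0.24). Of 8 erythrocyte genes 7 were on the higher side in 12 fish, with a median of 0.69, but the median was -0.13 without 12B. In the T cell and NK cell list, 12 of 17 were on the higher side in 35 fish (median -0.30), but the median was -0.01 without 12C and 0.08 without 35A. Its member of smallest p, rorca, a nuclear receptor, was on the higher side in 12 fish, at 43.6 to 58.1 CPM against 39.2 to 43.04 CPM. It was the 1 gene of the 17 whose fish did not overlap, beside 5.44% of all tested genes with the 12 fish above. In 0 of the 17 the 35 fish lay wholly above, beside 7.52%. For B cell and plasma cell genes 7 of 9 were on the higher side in 12 fish (median 0.22, or 0.05 without 12C). Of the interferon and antiviral genes, 12 of 15 were on the higher side in 35 fish (median -0.29), among them stat1b, a signal transducer of interferon receptors, at 14.2 to 14.8 CPM against 18.7 to 23.9 CPM. Beside 7.52% of all genes, 4 of these 15 had all 35 fish above all 12 fish. The interferon median was -0.17 without 35B, -0.47 without 35C and 0.10 with index row as a factor.

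Mitochondrial and ribosomal genes differed little but in the same direction across many members. In the mitochondrial ribosome, 50 of 54 genes were on the higher side in 12 fish with a median of 0.23. In oxidative phosphorylation it was 33 of 36 with a median of 0.15. The 12 fish lay wholly above in 2 of the 54 and 1 of the 36 genes. The 35 fish did so in 1 and 0, beside 5.44% and 7.52% of all tested genes. In both lists 12C was the highest fish in most genes, 45 of 54 and 28 of 36, and 35B the lowest in 35 and 32. Without 12C the medians were 0.08 and 0.02, without 35B 0.11 and -0.03, and with index row as a factor 0.07 and -0.02; without 35C the second was 0.31 and without 12A 0.25. Mrpl20, a protein of the large mitochondrial subunit, was at 13.9, 7.67 and 17.3 CPM in 12 fish and 8.73, 5.84 and 8.47 CPM in 35 fish (0.76, SE 0.34). Proteins of the cytosolic ribosome leaned to 35 fish, with 36 of 41 on that side and a median of -0.16, and 12A was the lowest fish in 35 of 41. Without 12A that median was -0.06, without 35C it was -0.07 and without 35B -0.27. In 1 of the 41 genes the 35 fish lay wholly above, and in 0 the 12 fish. Rps9, of the small subunit, was at 136.1, 201 and 158.5 CPM against 234, 181 and 235 CPM.

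Lipid genes leaned to 12 fish. In fatty acid and lipid metabolism 31 of 39 genes were on that side (median 0.32), and in sterol synthesis 17 of 18 (median 0.36). The 12 fish lay wholly above in 1 of the 39 and 0 of the 18 genes. The 35 fish did so in 0 and 1, beside 5.44% and 7.52% of all tested genes. For the first list 12C was again the highest fish in 28 of 39, and without it the median was 0.10, while without 12B it was 0.50. Gpam, which starts glycerolipid synthesis, was at 55.2, 25.6 and 98.9 CPM in 12 fish and 33.5, 18.8 and 25.6 CPM in 35 fish (1.21, SE 0.54). Elovl5, an elongase of polyunsaturated fatty acids, was at 31.9, 14.2 and 44.9 CPM against 11.8, 18.4 and 11.9 CPM (1.11, SE 0.47). In gpam and elovl5 the fish 12B lay among the 35 fish. Sterol synthesis gave a median of 0.15 without 12C, 0.62 without 35A and 0.055 with index row as a factor.

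Stress and iron genes had most members on the higher side in 12 fish. In heat shock and the unfolded protein response 23 of 30 genes were on the higher side in 12 fish (median 0.27, or 0.44 without 12B), and in iron and heme 10 of 14 (median 0.31, or 0.18 without 12C). The 1 stress gene of 30 whose fish did not overlap was higher in 35 fish, beside 7.52% of all tested genes in that direction. An unadjusted edgeR p under 0.05 was found in 3 stress genes higher in 12 fish and 2 higher in 35 fish. The shares over all tested genes were 3.32% and 2.91%. In iron and heme 1 gene had the 12 fish wholly above and 1 the 35 fish, beside 5.44% and 7.52% of all genes. Slc40a1, the iron exporter ferroportin, was at 11.6, 11.40 and 13.6 CPM against 6.81, 11.03 and 8.26 CPM (0.49, SE 0.19). Slc11a2, an importer of iron, was at 59.7, 39.4 and 79.3 CPM against 45.2, 39.8 and 33.8 CPM (0.58, SE 0.23). Ferroportin separated the fish by a narrow margin, and the importer did not.

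The epithelial lists themselves were near the centre of all genes. For absorptive enterocytes 9 of 14 genes were on the higher side in 12 fish, with a median of 0.09 (0.003 to 0.24 with 1 control fish left out), and for endocytic and lysosomal enterocytes 13 of 19, with a median of 0.10 (0.04 to 0.28). Anpepa, an aminopeptidase of the brush border, was at 1404, 779 and 1168 CPM in 12 fish and 1101, 573 and 649.5 CPM in 35 fish (0.53, SE 0.30). Of 5 goblet cell and mucus genes 4 were on the higher side in 12 fish (median 0.26). That median was 0.12 without 35C, 0.40 without 12C and 0.07 with index row as a factor. The list was led by creb3l1, a transcription factor of secretory cells, at 8.64, 8.62 and 5.61 CPM against 4.98, 3.82 and 4.66 CPM (0.76, SE 0.31). In the clock list nr1d2a, a repressor of the clock, was at 37.0, 31.6 and 30.3 CPM against 48.7, 62.1 and 47.5 CPM (-0.68, SE 0.27), and the list's median over 13 genes was -0.15 (-0.24 without 12A, and 0.13 with index row as a factor).

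Genes of gonad and sex were scarce, with 12 of 14 on the higher side in 35 fish and a median of -0.43 (-0.28 without 35C). Amh, the anti-Mullerian hormone, was at 0.604, 0.158 and 0.407 CPM in 12 fish and 0.986, 0.950 and 2.32 CPM in 35 fish (-1.85, SE 0.60). Bmp15, an oocyte growth factor, was at 0 to 0.091 CPM against 0.238 to 0.625 CPM. Piwil2, a germ line protein that silences transposons, went the other way at 1.72, 2.40 and 1.27 CPM against 0.888, 0.515 and 1.07 CPM (1.13, SE 0.37). Each of the 3 genes separated the numbers, though at low CPM throughout, and bmp15 in 12 fish rests on few reads. Over the list the 35 fish lay wholly above in 4 of the 14 genes and the 12 fish in 1, beside 7.52% and 5.44% of all tested genes.

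Some single genes with a gap of over 1 log2 unit, chosen after the values were seen, had known functions. Uts2, the peptide hormone urotensin II, was at 11.8, 6.36 and 7.21 CPM in 12 fish and 1.48, 0.515 and 2.996 CPM in 35 fish (2.36, SE 0.92). Slc7a11, a cystine importer, was at 10.5, 3.64 and 4.997 CPM against 1.28, 1.01 and 1.56 CPM (2.32, SE 0.86). Treated fish spanned both levels in each, 0.295 to 17.6 CPM and 0.703 to 19.4 CPM. Of the 73 genes with such a gap and the 12 fish above, treated fish reached both sides in 71, and of the 88 with the 35 fish above in 84. The treated median was nearer the lower number in 43 of the 73 and in 65 of the 88.

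Transport, signalling and immune lists did not all lean to the same number. Of 22 solute and water transporters 11 were on each side, with a median of 0.03 (-0.24 to 0.13 with 1 control fish left out). The 12 fish lay wholly above in 3 of the 22 and the 35 fish in 5, beside 5.44% and 7.52% of all tested genes. An unadjusted edgeR p under 0.05 was found in 2 on the higher side in 12 fish and 3 in 35 fish, beside 3.32% and 2.91%. The vitamin carriers slc5a6a (biotin and pantothenate) and slc19a1 (folate), chosen after their values were seen, were on the higher side in 12 fish. Slc5a6a was at 7.997, 3.96 and 8.004 CPM against 3.55, 3.01 and 2.68 CPM. Slc19a1 was at 11.20, 7.22 and 13.1 CPM against 6.41, 6.95 and 6.85 CPM. In both genes the lowest 12 fish was only just above the highest 35 fish. Cytokines and chemokines gave 10 of 15 genes on the higher side in 35 fish (median -0.22, or -0.50 without 12A and -0.08 without 12C), and 4 of the 15 did not overlap in that direction, beside 7.52%. Tgfb2, a growth factor that restrains inflammation, was at 0.970, 1.24 and 1.02 CPM in 12 fish and 1.78, 3.21 and 2.27 CPM in 35 fish (-1.17, SE 0.44). Medians were -0.02 for 25 genes of pattern recognition and NF-kB, 0.17 for 12 of macrophages and dendritic cells, 0.09 for 9 of neutrophils and mast cells and 0.10 for 12 of antigen presentation. With 1 control fish left out these were -0.11 to 0.03, -0.03 to 0.30, 0.04 to 0.27 and 0.05 to 0.21. In the same order of lists, 10, 10, 6 and 7 genes were on the higher side in 12 fish. The median was -0.24 for 21 markers of liver and -0.48 for 8 of kidney, with 14 and 6 of them on the higher side in 35 fish. The liver median was 0.09 without 35C, -0.55 without 12B and 1.47 with index row as a factor, and the kidney median was -0.31 without 12B. Liver genes were at 102.2 to 169.6 CPM in sum in 12 fish and 95.6 to 145.1 CPM in 35 fish. The kidney list's member of smallest p and of highest CPM, cdh17, went against its median (0.67, SE 0.30). It was at 677 to 1284 CPM in 12 fish and 537 to 752 CPM in 35 fish. Whether any kidney tissue was present was not tested.

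The same contrast of title numbers gave no edgeR call in treated fish either. Between the 2 probiotic numbers it called 0 of 32619 genes, while 3046 had an unadjusted p under 0.05 and 103 were called by DESeq2. Between antibiotic fish 67 and 91 it called 0, while 2313 had an unadjusted p under 0.05 and 68 were called by DESeq2. Leaving out the probiotic fish pro139B gave 28 edgeR calls between the probiotic numbers, and leaving out the antibiotic fish abx91B gave 55 between the antibiotic numbers, where 1 fish then stands for its number. The difference of these counts from those of the controls was not tested.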

How the data were processed

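Hindgut RNA of 17 fish was sequenced as paired-end libraries. The deposited values are raw counts per gene. The submitters' processing notes name Trimmomatic 0.38, HISAT2 and featureCounts. The genome build, the strand setting and the treatment of multiply mapped reads were not given in the sources used here. Of 42555 entries, 1 without an identifier (0.155 to 0.523% beside the named counts of a library) was left out. Symbols of LOC identifiers came from RefSeq names of assembly Otsh_v2.0, which gave 6084 of 38153 a symbol. Salmonids carry many duplicated genes, so 1 symbol can name several similar loci and reads may be split between them.

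All 17 libraries entered 1 edgeR fit with 6 groups (treatment and title number), after filterByExpr and TMM normalisation. The contrast was control 12 minus control 35 in a 2-sided robust quasi-likelihood F-test with Benjamini-Hochberg adjustment over 32619 genes at 0.05. SE is the log2 fold change divided by the root of F. CPM are TMM-normalised. Lists are described by counts and medians, with no test of a list. Members of a list can rise and fall together, so the share over all genes beside a count is not a test either. The letters were not taken to pair fish: no label says so, and deviations of fish with the same letter correlated at -0.02, 0.08 and 0.02. Alternatives were RLE and upper quartile scaling, other filters, DESeq2, limma-voom, a letter block, index well, tissue scores as covariates, the control libraries alone and leaving out each library. The versions used were edgeR 4.0.16, DESeq2 1.42.0 and limma 3.58.1 under R 4.3.3, and the fit was tested on simulated data.

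The comparison and the lists were chosen with earlier results of these data known. As under 5 genes were called, the 20 of smallest p are all drawn as not passing, and only some of them are also named in the text. Each list's member of smallest p and of highest CPM may be named. Other genes named were chosen after their values were seen. They comprise further list members, the small nuclear RNA genes, LOC112226049, ckap2l, sycn, endou, uts2 and slc7a11. Some list members are not reported here by name.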

Additional observations from a re-analysis of the deposited data

How the results depend on the processing

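Under the alternatives run, the control comparison gave 0 calls, with the replicate block on the title letter (0) and with each library left out (0 to 0) too, except under DESeq2 with 17 calls, 6 higher in 12 fish and 11 in 35 fish. DESeq2 also called 103 genes between probiotic and 68 between antibiotic numbers, and leaving out 1 library gave 0 to 28 and 0 to 55, with a lone remaining fish assumed to vary like the others. The count at an unadjusted p under 0.05 was recomputed under the alternatives after the data were seen. It was 674 with index row as a factor, 952 with the exocrine pancreas score as a covariate and 966 to 3836 with 1 library left out. Index row goes with the number in controls, and the pancreas score does not overlap (2.81 to 3.15 in 12 fish, 0.90 to 1.74 in 35 fish). Either term shares much of the contrast, so a lower count was partly built in. In genes of at least 1 CPM the 35 fish were wholly above in 1581, and the share of separated genes with 12 fish above was 48.3% instead of 42.0%.

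The exocrine pancreas median was 1.90 with index column (1 treated fish's label names wells in columns 9 and 12, and 9 was used). It was 0.94 with index row and 2.1 to 2.60 with 1 library left out. With the list's own score as a covariate the median was 0.30. That score is the mean log2 CPM of the same genes, so a smaller median was built in and says nothing of the result. The cell cycle median was 0.11 with index row. With 1 library left out it was 0.66 to 1.22, the endothelium median -0.57 to -0.27 and the neuron and glia median -0.84 to -0.24. Of the single genes named, prss1 changed sign, to -0.44 with the pancreas score, of which it is itself a member. The causes of these shifts were not tested. Genes well under 1 CPM rest on few reads, which limits them most.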
